A study of Mus musculus with 4 samples.

Results

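miR-221 and miR-222 are a pair of microRNAs (miRNAs) made from neighbouring hairpin genes, Mir221 and Mir222. They were followed here in bronchoalveolar stem cells (BASCs) with and without depletion of c-Myc. The members were chosen by name, as the mouse assays mmu-miR-221 and mmu-miR-222 on the TaqMan low density array cards, which gave 2 of the 517 mouse miRNAs assayed. Each had 1 well, on the first of the 2 cards (card A). The cards held 0 further assays with either name, so the other strand of these hairpins was not measured under these names.

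There were 4 samples in all, and each group, control or c-Myc depleted, had 2 of them. The cells came from the lungs of ICR mice aged 4 to 6 weeks, were sorted as CD31 and CD45 negative, CD34 and Sca-1 positive, and were plated on irradiated mouse embryonic fibroblasts. In the methods the established cells stayed on such feeders, elsewhere in the text they were moved to collagen-coated dishes, and which held for these samples is not stated. In the depleted cells c-Myc was knocked down by a lentivirus that delivered an shRNA, and stable lines were kept under puromycin. A control lentivirus is described in the methods, but the sample labels say only control, and the accompanying text also calls the controls wild type. The labels do not state whether the replicates were separate cultures, so the p-values measure only the spread between these samples. Neither the shRNA used for each sample nor the number of clones is given, and the cards do not measure c-Myc itself.

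A mature miRNA guides the silencing complex to messenger RNAs that pair with its seed, the bases near its 5′ end, and those messengers are then translated less or degraded. miR-221 and miR-222 are best known for repressing Cdkn1b (p27Kip1) and Cdkn1c (p57Kip2), which hold cells before S phase, and Kit, the receptor of stem cell factor. They are abundant in many tumours, in vascular smooth muscle and endothelium, and in fibroblasts. c-Myc is a transcription factor that drives growth and division.

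The mature sequences are shown because the shared seed is what makes the pair a family. They are from RefSeq for the mouse build GRCm38.p6, with bases 2 to 8, the seed, in capitals. The assay names carry no arm. They were matched to the 3p arms, the only arm of miR-222 listed and the one with the family seed.
mmu-miR-221-3p: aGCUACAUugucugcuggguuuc
mmu-miR-222-3p: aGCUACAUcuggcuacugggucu
mmu-miR-221-5p: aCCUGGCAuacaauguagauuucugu

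The 3p sequences, of 23 bases each, were identical over their first 8 bases and at 11 of 23 positions in all. The first difference, counted from the 5′ end, was U9C from miR-221 to miR-222. Of 1679 mature mouse names in the table, 3 carried the seed GCUACAU: both members and miR-1928. The opposite strand, miR-221-5p, has another seed, which 1 name carried. Mir221 lies at chrX:19146294-19146388 and Mir222 at chrX:19146893-19146971, both on the minus strand, with 504 bases between the hairpins. No other annotated gene overlapped this stretch, which makes the hairpins intergenic in this annotation. The nearest annotated gene was Gm14636, 9499 bases from Mir222.

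The readout of a well is its threshold cycle (CT), or the number of PCR cycles needed for the product to reach a fixed level. A lower CT means more RNA, and 1 cycle stands for 1 on the log2 scale. The CT of mmu-miR-222 was 25.96 in control replicate 1 and 25.95 in control replicate 2, against 24.86 in depleted replicate 1 and 24.95 in depleted replicate 2. Both depleted samples thus had a lower CT of miR-222 than both controls, before any normalization, and the groups were about 1 cycle apart. For mmu-miR-221 the controls gave CT values of 27.97 and 27.94, while the depleted samples gave 26.93 and 27.30. Here too the groups did not overlap, but depleted replicate 2 lay between the controls and depleted replicate 1. The control replicates were closer to each other than usual, with gaps of 0.0289 cycles for miR-221 and 0.0101 for miR-222 against a median of 0.211 over the 64 tested miRNAs of card A. The gap of miR-221 between the depleted samples, 0.376 cycles, was wider than for 55 of these 64.

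**Figure D1:**
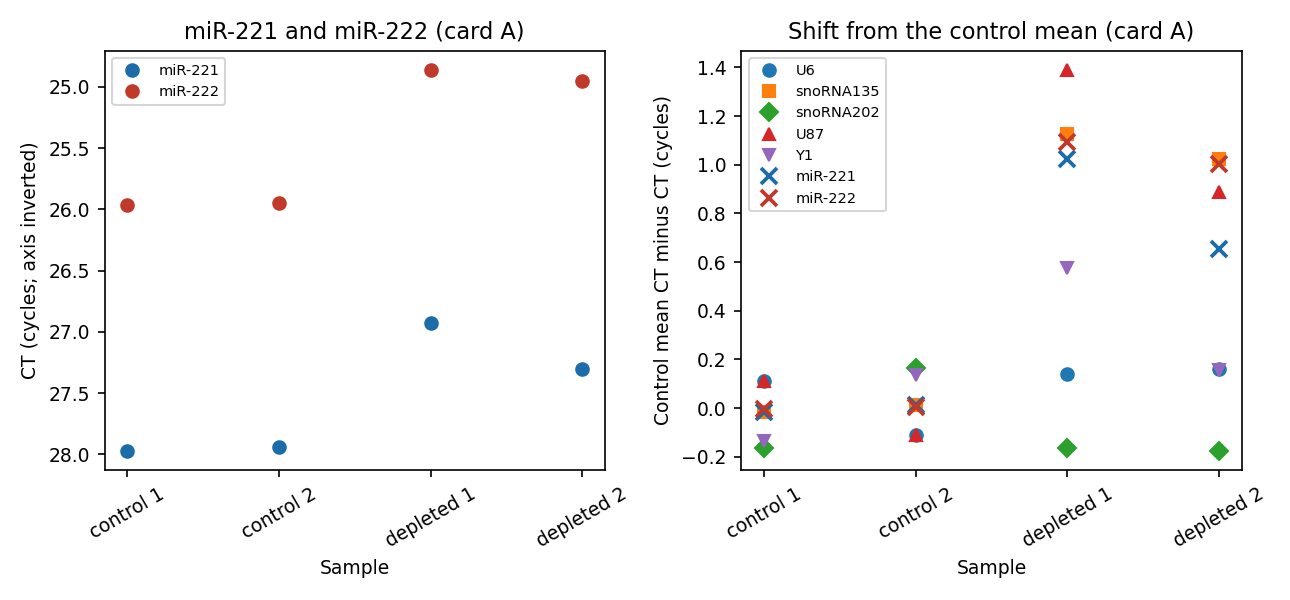
Left, CT in cycles (inverted axis, so higher points mean more RNA) of miR-221 and miR-222 in each of the 4 samples. Right, shift of CT from the mean of the control samples for the pair and the small RNA controls of card A, where the marks of miR-222 and snoRNA135 lie within 0.0332 cycles of each other in CT.

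Following the methods of the study, 35 was taken as the ceiling of CT, and each value was then set against the mean CT of U6, a small nuclear RNA, from its own card. The result, ΔCT, is again lower where there is more RNA. The controls had a ΔCT of 7.07 and 6.85 for miR-222, and the depleted samples one of 6.00 and 6.11. Its mean went from 6.96 ± 0.156 (SD, n = 2) to 6.06 ± 0.0810 (SD, n = 2). For miR-221 the controls had 9.08 and 8.84 and the depleted samples 8.07 and 8.46, with means of 8.96 ± 0.170 and 8.27 ± 0.281 (SD, n = 2 each). After subtraction of U6 both depleted samples stayed above both controls in level for each member. Such a separation in this direction was seen for 45.3% of the 64 tested miRNAs of card A.

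The change was tested in limma, which pools the spread over miRNAs, on the 80 mouse miRNAs whose lowest ΔCT was below 10, with Benjamini-Hochberg adjustment over all of them. miR-222 rose 1.87-fold in the depleted samples (log2 change 0.90 with a standard error of 0.15, 95% interval 0.47 to 1.32, adjusted p = 0.0224 from limma). The log2 change of miR-221 was 0.69 (standard error 0.21, 95% interval 0.09 to 1.29), with an unadjusted p of 0.0339 and an adjusted p of 0.0970 from limma, so it did not pass the threshold of 0.05. Neither member reached a change of 2-fold, which with an unadjusted p below 0.05 was met by 20.0% of all tested miRNAs and 21.9% of those on card A. The rise of miR-222 was 1 among many. On card A 31.2% of the tested miRNAs were called higher and 1.56% lower, and over both cards 25.0% higher and 7.50% lower, or 32.5% in all. For 13 miRNAs, neither member among them, some CT values carry 8 decimals where all others have at most 6. For those of the 13 on the cell-cycle lists below, such values are in depleted samples only, and the reason is not stated. Without the 13 miRNAs, the number called higher on card A went from 20 to 9, or 17.6% of the 51 remaining. Other miRNAs rose by more: 18 of the 80 had a log2 change above that of miR-222, and 25 above that of miR-221. The median log2 change of all tested miRNAs was 0.05, which miR-222 exceeded by 0.845 and miR-221 by 0.637. The exact permutation test (two-sided) of a single miRNA in this design cannot go below p = 0.333, the value that both members gave.

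**Figure D2:**
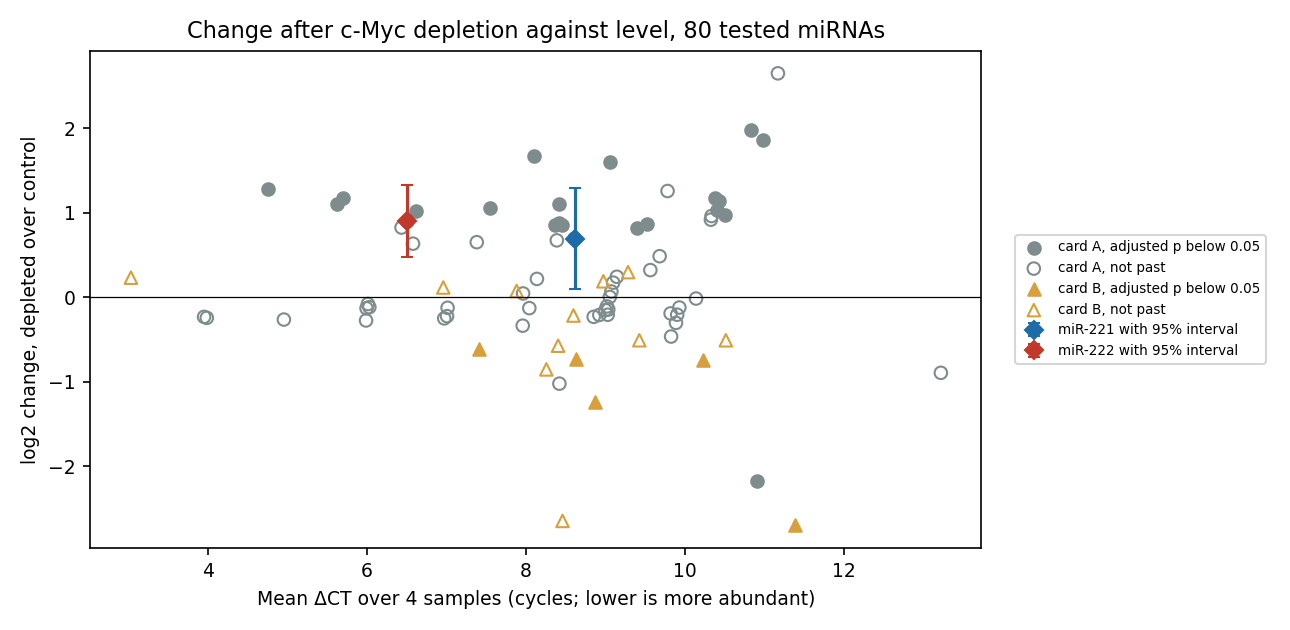
Log2 change after c-Myc depletion against the mean ΔCT over the 4 samples (cycles) for the 80 tested miRNAs, with circles for card A and triangles for card B, filled where the adjusted p of limma is below 0.05. The diamonds are miR-221 and miR-222 with their 95% intervals, which both lie above 0, and 18 miRNAs lie higher than miR-222.

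Fewer cells and less RNA per cell cannot be told apart in such bulk samples, and every value depends on the RNA taken as reference. Card A carries other small RNA controls, and they did not move alike. Before normalization, U6 was higher in the depleted samples by 0.151 cycles, Y1 by 0.360, snoRNA135 by 1.07 and U87 by 1.14, while snoRNA202 changed by -0.172. Apart from U6, read in 4 wells, each of these is 1 well on card A. On card B, with 4 wells for each, the shifts differed: U6 rose by 0.722 cycles, Y1 by 0.402, snoRNA202 by 1.0 and U87 by 0.535, while snoRNA135 changed by -0.0166. The rise of snoRNA135 was thus seen in its single well of card A and not on card B. Of these controls on card A, snoRNA135 was the closest to miR-222 in CT. They differed by 0.0332 and 0.0195 cycles in size in the control samples, and by 0.00222 and 0.00593 in the depleted ones. The median gap between the replicates of a miRNA, which is another measure than a gap between assays, was 0.211 cycles for controls and 0.137 for depleted samples. In control replicate 1 miR-106a and miR-155 also had a CT of 25.96. In the depleted samples, however, miR-106a had 25.97 and 25.97 and miR-155 had 25.91 and 25.95. These assays thus did not share the lower CT of miR-222 and snoRNA135 after depletion.

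The size of the change therefore depended on the reference, and against the single wells of snoRNA135 and U87 on card A no rise was seen. With snoRNA135 the log2 change of miR-222 was -0.02 (95% interval -0.26 to 0.21) and that of miR-221 was -0.23 (-0.63 to 0.16). With U87 they were -0.09 (-0.86 to 0.69) and -0.30 (-1.07 to 0.48), so all of these intervals include 0. With snoRNA202 of card A they were 1.22 and 1.01, and both passed the threshold of limma, with adjusted p-values of 0.0116 and 0.0219. With snoRNA135 and snoRNA202 together miR-222 had a log2 change of 0.60 and an adjusted p of 0.0480 from limma, and miR-221 one of 0.39. The call for miR-222 was lost with Y1 (0.69), with U6 of both cards (0.61), under quantile normalization (0.70) and with each sample centred on its median (0.51). Its call was lost as well with each card so centred (0.40), where limma gave both members a standard error of 0.76. It was also lost without depleted replicate 1 (0.84) and without depleted replicate 2 (0.96), where 1 depleted sample was left and the standard error was 0.99. At an unchanged 0.90 it was lost with no filter on ΔCT and with the replicate number as a block. The call was lost too in the study's own kind of test, which does not pool the spread over miRNAs, after adjustment. The study states no such adjustment, and without it miR-222 was below the study's limit of 0.05 in that test. As computed here, the change of miR-222 stayed under the study's other limit, 2-fold. The folds computed here, in either direction, were 4.53 for miR-126-3p, 3.92 for miR-34c and 3.02 for miR-193b. The study reports a larger fold for each of these miRNAs, so its fold scale was not reproduced. Whether miR-222 was under the limit on that scale is therefore not decided.

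**Figure D3:**
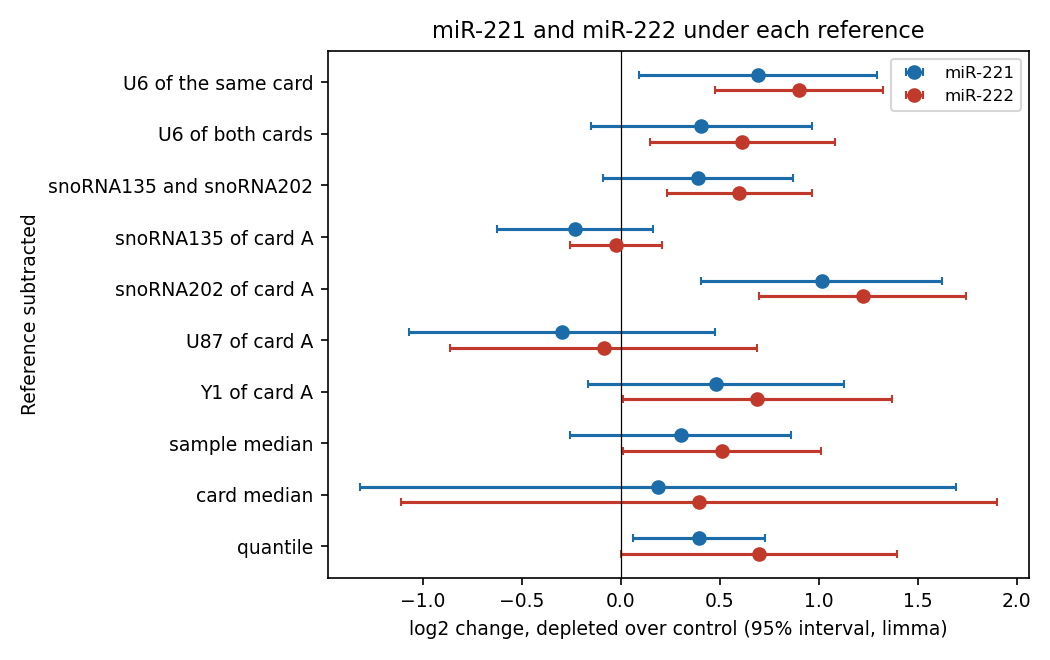
Log2 change of miR-221 and miR-222, depleted over control, with 95% intervals from limma, for each reference subtracted from CT. The points lie between -0.30 and 1.22, below 0 with snoRNA135 or U87 of card A and above 0 with the other references, and the value of miR-222 is above that of miR-221 with each.

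The reference drops out when the members are compared within a sample, since both wells are on one card. The CT of miR-221 exceeded that of miR-222 by 2.01 and 1.99 cycles in the controls and by 2.07 and 2.35 in the depleted samples. The ratio within the pair was thus nearly constant in 3 of the 4 samples and wider in depleted replicate 2. The change of miR-221 was smaller than that of miR-222 by this measure (difference -0.21 on the log2 scale), and between -0.35 and -0.07 with 1 sample left out at a time. The exact two-sided permutation p was 0.333, the smallest that this design allows, so this test cannot decide whether the members differ in their change. The threshold passed by miR-222 alone does not decide it either.

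On the level scale, both miRNAs were among the more abundant of the 263 mouse miRNAs detected in at least 1 sample. By mean ΔCT, miR-222 ranked 17 in control BASCs and 10 in depleted BASCs, and miR-221 ranked 44 and 35. Levels of different assays are comparable only as far as the assays amplify alike, which the cards do not show. Copies were computed by the published formula, which turns CT into copies per cell with one standard curve and no U6 subtraction. It also assumes the same fixed amount of total RNA in every cell, which was not measured here. miR-222 had 728 ± 3.57 copies in control BASCs and 1502 ± 67.9 in depleted BASCs (SD, n = 2 each). miR-221 had 183 ± 2.59 and 330.4 ± 60.2 copies (SD, n = 2 each). With CT shifted to an equal U6, miR-222 had 769 and 1426 copies and miR-221 had 194 and 314.

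Over all samples miR-222 ranked 13 and miR-221 ranked 39. The neighbours of miR-222 in this order were miR-191 and miR-199a-3p above it and miR-140 and miR-214 below it. The neighbours of miR-221 were miR-696 and miR-214* above it and miR-374 and miR-342-3p below it. The range of ΔCT over the 4 samples overlapped that of the member for each of these neighbours, so the order over all samples was not resolved. These ranges hold both groups, and the change of a member widens its range. Within a group the order could be clear. For miR-374 the controls had a ΔCT of 8.39 and 8.15, against 9.08 and 8.84 for miR-221. In the depleted samples it was 9.04 and 8.96, against 8.07 and 8.46 for miR-221, so this order turned round.

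The likeness of other miRNAs to the pair was measured as the Euclidean distance between ΔCT values over the 4 samples, each miRNA centred on its own mean. This is a description over 4 points that share their U6 values, with no test. For miR-222 the closest was miR-152 at 0.0711 cycles, followed by let-7i, miR-139-5p, miR-199a-3p and miR-30c at up to 0.213. For miR-152 the controls had a ΔCT of 10.1 and 9.85 and the depleted samples one of 9.08 and 9.11, so it followed the course of miR-222 at a lower level. For miR-221 the closest was miR-140 at 0.0699 cycles, followed by miR-199a-3p, miR-296-5p, miR-30c and let-7i at up to 0.281. For miR-140 the controls had a ΔCT of 7.04 and 6.75 and the depleted samples one of 6.08 and 6.45, and this cartilage-enriched miRNA shared the wider gap between depleted samples. The members themselves were 0.289 cycles apart, which put miR-222 in place 6 for miR-221 and miR-221 in place 11 for miR-222. All 7 of the named miRNAs are on card A, and none of their sequences in the RefSeq table has the seed GCUACAU.

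The CT values themselves were not spread evenly between whole cycles. Of 1260 CT values below 35 over all wells and samples, 681 or 54.0% had a fractional part of 0.8 or more, where an even spread would give 20%. Of the 8 CT values of the pair, 7 had such a fractional part, and the exception was miR-221 in depleted replicate 2 (0.303). The CT changes of card A before U6 subtraction were grouped likewise. Among the 64 tested miRNAs, 25 changed by less than 0.2 cycles in either direction, 15 rose by 0.8 to 1.2 cycles, and 7 lay between these ranges. Another 13 rose by more than 1.2 cycles, and 4 fell by more than 0.2. miR-222, with a rise of 1.05 cycles, and miR-221, with 0.842, were among the 15. The exception of 0.303 is in the sample where the ratio within the pair was wider. Whether this uneven spacing contributed to the size of their change or to the near-constant ratio within the pair was not tested. Nor was its part in the likeness of their course to that of other miRNAs and of snoRNA135.

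**Figure D4:**
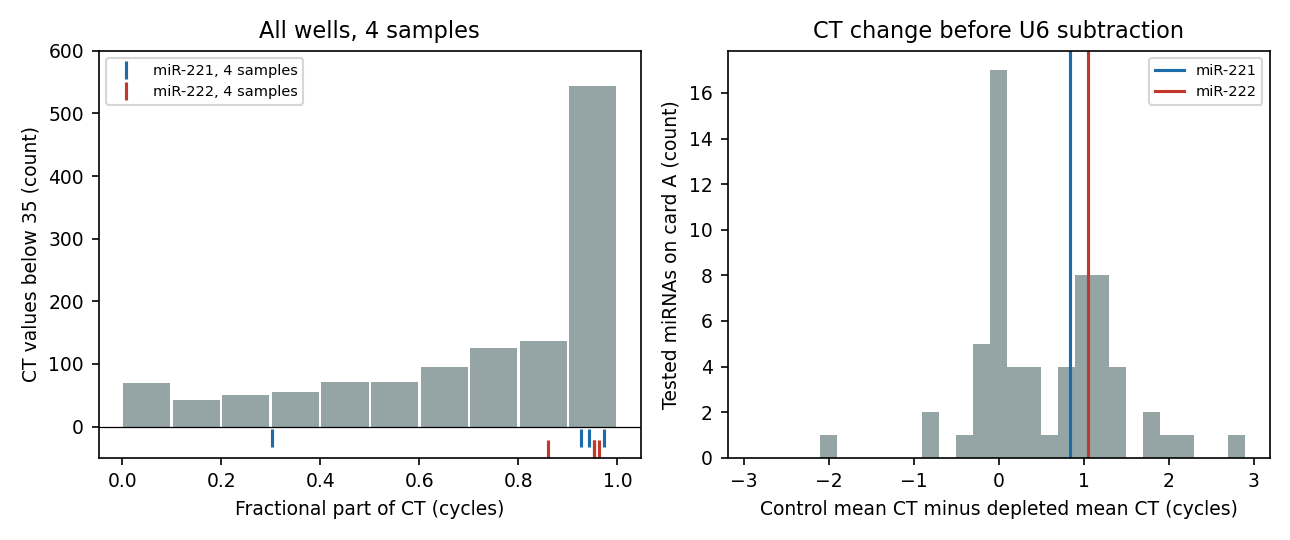
Left, number of CT values below 35 by fractional part (cycles) over all wells of the 4 samples, 1260 in all, with the values of miR-221 and miR-222 as ticks below the axis. Right, number of tested miRNAs of card A by CT change before U6 subtraction (cycles), with lines at miR-221 (0.842) and miR-222 (1.05), where a group of values near 0 and one near 1 cycle can be seen.

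As context for a pair known to act on inhibitors of the cell cycle, other miRNAs with textbook roles in division were counted. Of 15 listed as promoting it, among them the miR-17 family, miR-19a and miR-19b, miR-21 and miR-155, 11 were tested. Of these 5 rose and none fell (adjusted p below 0.05 in limma), namely miR-17, miR-20a and miR-106b, which act on the inhibitor p21, and miR-19b and miR-214. Their log2 changes were 1.17, 1.05, 1.14, 1.28 and 1.02. The values of miR-21, miR-155 and miR-106a, which were not called, were -0.25, -0.13 and -0.23. Of 32 listed as restraining division, such as the let-7, miR-15/16, miR-34 and miR-29 families, 16 were tested. Of these 6 rose and none fell: let-7i (0.85), miR-26a (1.10), miR-34a (1.17), miR-34c (1.97), miR-193b (1.60) and miR-365 (0.82).

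The medians of the promoting and restraining lists were 0.07 and 0.21, beside 0.05 over all tested miRNAs. All 27 tested members of both lists lie on card A, where 31.2% of miRNAs were called higher, and 40.7% of the 27 were. Of the 11 called, 8 carry CT values of 8 decimals, in depleted samples only. Among the 18 without such values 3 were called higher, or 16.7%, beside the 17.6% of card A counted the same way. Most of the miRNAs so left out, on the lists as on the card, were themselves called higher. These shares therefore depend on the calls and do not decide whether the lists differed from the card. The rise of miR-222 thus stood beside rises of miRNAs with opposite known roles, on a card where many values rose.

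miRNAs typical of other cells were read beside these values. Of those of fibroblasts and smooth muscle, where miR-221 and miR-222 are also known to be abundant, 5 of 6 listed were assayed and all 5 were detected in at least 1 sample. Their summed level, in thousandths of U6, was 34.4 and 39.6 for controls, against 50.2 and 48.2 for depleted samples, so it moved the same way as the pair. Within that list, miR-214 was called higher, miR-199a-3p had a log2 change of 0.82 without passing the threshold (adjusted p = 0.0722 from limma), and miR-143 and miR-145 had values of 0.04 and -0.13. miR-199a-5p had a CT below 35 in only 1 sample of each group. Of the endothelial miR-126-3p and miR-126-5p the summed level was 1.07 and 1.22 for controls and 0.283 and 0.252 for depleted samples, the opposite direction to the pair. Of 11 epithelial miRNAs, 9 were detected in at least 1 sample, with sums of 1.76 and 1.37 for controls and 1.56 and 1.07 for depleted samples. Of these, miR-182, miR-183 and miR-200c had a CT below 35 in all samples. For miR-182, the only one tested, CT was 28.64 and 28.95 in controls and 28.73 and 28.98 in depleted samples. It was not called (log2 change -0.21). miR-96 and miR-375 each had a CT below 35 in 1 sample of each group, and for both it was lower in the depleted sample. For miR-96 it was 34.21 in control replicate 1 and 30.79 in depleted replicate 1. For miR-375 it was 33.39 in control replicate 2 and 32.35 in depleted replicate 1. miR-203 and miR-205 had no CT below 35 in any sample, and miR-200b, miR-141 and miR-429 had one in control replicate 1 alone. miR-200a had a CT of 31.80 and 33.00 in the controls and was at the ceiling in both depleted samples, the opposite direction to the pair. Among 6 assayed miRNAs of blood cells the sums were 0.321 and 0.118 for controls and 0.944 and 0.953 for depleted samples, where miR-486 had a CT of 29.02 and 29.15 and was at the ceiling in the controls. In the same list miR-142-3p, miR-142-5p and miR-451 had a CT below 35 in control replicate 1 alone. Of the 6 assayed miRNAs of muscle, 4 were at the ceiling in all samples. The part of other cells, the fibroblast feeder included, in the levels of miR-221 and miR-222 was not tested.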

How the data were processed

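The authors deposited 1 table of threshold cycles (CT) for 768 wells and 4 samples, read on TaqMan rodent cards A and B and taken, per their methods, from RQ manager software without normalization. The submitters' processing notes name Partek 6.4. The control samples had a CT in 351 and 340 wells, the depleted ones in 334 and 341. Groups were taken from the sample titles.

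CT was capped at 35, which also stood for undetected wells. Repeat wells of an assay were averaged before U6 of the same card was subtracted (ΔCT). The 80 of 517 mouse miRNAs with a lowest ΔCT below 10 were tested on minus ΔCT with limma 3.58.1 (lmFit, eBayes) in R 4.3.3, with Benjamini-Hochberg adjustment at 0.05. The study used ANOVA, run here as an alternative. A log2 change is the mean ΔCT of controls minus that of depleted samples. Tables were made with Python 3.11.15, numpy 2.4.6 and pandas 2.3.3. Scripts were tested on simulated ΔCT. The number of samples limits the precision, as 2 per group leave 2 residual degrees of freedom per miRNA.

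The members, lists and tests were chosen with earlier results of these data known. Named miRNAs are the members, the 5 most like each in course, the 2 neighbours on each side in level, the listed miRNAs called, and the small RNA controls. The listed miRNAs given with values but not called, and snoRNA135 as the closest control, were chosen after their values were seen.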

Additional observations from a re-analysis of the deposited data

How the results depend on the processing

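The log2 changes of miR-221 and miR-222 stayed above 0 with 7 of 9 other references and without any 1 sample. The other alternatives (CT ceiling, filter, test and block) cannot move the estimate itself. It fell below 0, with intervals that include 0, with snoRNA135 alone on card A (-0.23 for miR-221, -0.02 for miR-222) and with U87 alone (-0.30 and -0.09). These single controls, chosen after seeing the data, also gave the one call of miR-221, with snoRNA202 (1.01). miR-222 lost its call under median centring (0.51), median centring within each card (0.40), quantile normalization (0.70), U6 pooled over both cards (0.61) and Y1 alone (0.69), and at its value of 0.90 with no filter on ΔCT, in one-way ANOVA and with the replicate block. With 1 sample left out at a time, miR-221 ranged from 0.49 to 0.89 and miR-222 from 0.79 to 1.01, and the call of miR-222 was lost without either depleted sample, where limma gave every miRNA a single standard error of 0.99. The adjusted p of miR-222 over all alternatives ranged from 0.0116 to 0.997, and that of miR-221 from 0.0219 to 0.997.

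The number of miRNAs called was 26. It was 17 with ΔCT below 10 in all samples, 1 with median centring within each card, 3 with median centring, 2 with no filter, 4 with quantile normalization, 14 with U6 pooled, 3 in ANOVA, and 0 to 25 with 1 sample left out. The 26 calls, 76.9% of them higher, became 66.7% higher with snoRNA135 and snoRNA202, 33.3% with median centring and 0% with quantile normalization and card medians. The number past the study criteria was 16, and 9, 5, 7, 37, 8 and 6 under the first 6 of these settings in the same order, 7 with snoRNA135 and snoRNA202, and 5 to 24 with 1 sample left out. Of the listed cell-cycle miRNAs 11 were called, 0 with either median centring or no filter, 1 with quantile normalization, 3 in ANOVA and 0 to 11 with 1 sample left out. The median log2 change of all tested miRNAs, 0.05, was -0.27 with median centring, -0.18 with card medians and with snoRNA135 and snoRNA202, and -0.17 with U6 pooled.

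The replicate numbers of the labels share no stated source. With the replicate block 0 miRNAs were called by limma, 26 had an unadjusted p below 0.05, 0 listed miRNAs were called, and the difference between the members stayed at -0.21. The deviations of same-numbered samples 1 from their group means had a correlation of -0.436 over the 80 miRNAs. That value includes miRNAs with wells at the ceiling, such as miR-199a-5p, with a ΔCT of 9.65 and 15.89 in controls and 16.14 and 11.2 in depleted samples. It was not computed without them. The crossed pairing, added after seeing the data, gave 33 calls and 17 past the study criteria. Copies per cell of miR-221 were 194 in controls with CT shifted to equal U6, and 4033 and 7268 in control and depleted BASCs without the division by 22. For miR-222 they were 769 and 1426 with equal U6, and 16012 and 33046 without the division. The values without the division are larger by that factor by construction. The shifts with equal U6 also follow by construction, from the U6 CT of each sample. What lay behind the differences in U6 was not tested.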
